A study of Mus musculus with 2 samples.

Results

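The genes described here encode the integrin chains and adhesion molecules with which a splenic regulatory T cell (Treg) holds on to other cells: Itgae (CD103, integrin alpha E), Itgb7, Itga4, Itgb1, Itgal, Itgb2, Itgav, Itgb8, Selplg and Cd44. All probe sets that the platform annotation gives to exactly 1 gene, that gene being one of these 10, were taken, which gave 28 of the 45037 probe sets of the array, for 10 of its 18193 named genes. RNA was measured on 1 Affymetrix array of CD4+Foxp3+ Tregs from DNR mice, whose name stands for the dominant negative TGF-beta receptor II they carry, and on 1 array of the same cells from wild-type (WT) mice. Per the labels, the mice of both groups were 10 weeks old and on the C57BL/6 background, and the cells were sorted from the spleen by flow cytometry. The sources used here do not give the promoter that drives the receptor, how many mice stand behind an RNA, or how Foxp3 was seen in living cells.

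Integrins are pairs of an alpha and a beta chain, and a chain reaches the cell surface only with its partner. On T cells, alpha E pairs with beta 7 and binds E-cadherin of epithelial cells, alpha 4 pairs with beta 7 or beta 1 to enter gut and inflamed tissue, alpha L pairs with beta 2 (LFA-1) to grip ICAM molecules, and alpha V with beta 8 frees TGF-beta from its latent complex. TGF-beta is known as the main inducer of Itgae in T cells. PSGL-1, the product of Selplg, is a ligand of selectins, and CD44 binds hyaluronan and rises when T cells become activated.

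RefSeq's table for GRCm38.p6 held a promoter for 6 of the 10 genes: Itgb7, Itga4, Itgb1, Itgav, Itgb8 and Cd44. The 250 bases before the start are shown for the beta 7 chain, the partner of CD103, and for both chains of alpha V beta 8, the pair that activates latent TGF-beta, as examples. Capitals mark CAGAC, the core of the SMAD-binding element, or GTCTG, the same on the other strand.
Itgb7 (chr15:102231936-102232185, minus strand): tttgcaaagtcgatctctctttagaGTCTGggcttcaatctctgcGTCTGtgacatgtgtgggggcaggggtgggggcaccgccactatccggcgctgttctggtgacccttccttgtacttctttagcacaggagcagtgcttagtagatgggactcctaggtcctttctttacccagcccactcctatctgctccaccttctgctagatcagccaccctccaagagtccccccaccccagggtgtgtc
Itgav (chr2:83724147-83724396, plus strand): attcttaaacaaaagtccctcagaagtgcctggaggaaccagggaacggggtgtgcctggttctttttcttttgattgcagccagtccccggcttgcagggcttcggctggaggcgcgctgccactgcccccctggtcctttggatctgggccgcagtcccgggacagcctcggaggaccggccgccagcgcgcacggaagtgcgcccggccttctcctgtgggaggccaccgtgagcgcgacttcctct
Itgb8 (chr12:119238277-119238526, minus strand): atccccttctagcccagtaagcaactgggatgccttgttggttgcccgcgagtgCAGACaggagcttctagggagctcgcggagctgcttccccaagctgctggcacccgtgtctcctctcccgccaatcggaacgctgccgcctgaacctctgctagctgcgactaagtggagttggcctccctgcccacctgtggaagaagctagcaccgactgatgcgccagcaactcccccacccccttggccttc
These letters occurred 2 times before Itgb7, 0 times before Itgav and 1 time before Itgb8, and 1, 3 and 0 times before Itga4, Itgb1 and Cd44. Of 32851 promoters in the table, 42.2% held at least 1 such match in the same window, so the match describes the sequence and nothing more. TGANTCA, the AP-1 motif, which reads the same on both strands, occurred 0 times before the 6 genes, against 6.75% of all promoters with a match. TGTGGT, the RUNX motif, or its reverse ACCACA occurred 1 time before Itga4 and 0 times before the other 5, against 14.0% of all promoters with a match. Matches of different motifs did not overlap.

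Values are MAS5 signals, the brightness of a probe set on a linear scale, and levels of different probe sets cannot be compared with each other. Each genotype has 1 array, so there is no test, and every value below compares these RNA samples. A signal of 110.9, the higher of the medians of the arrays, served as a floor below which a signal was not read. All 10 genes passed the floor on both arrays. Of the 28 probe sets, 22 were above it on both arrays, 6 on neither and 0 on a single array. Each gene is given by its brightest probe set over both arrays, and a difference was called at 2-fold or more. Log2 ratios are DNR over WT. The only error these arrays give is how far probe sets of 1 gene disagree. Among 3945 genes whose 2 brightest probe sets both passed the floor on both arrays, it came to a robust SD of 0.36 for the log2 ratio of 1 probe set. For the 2589 of them whose brightest probe set had a mean signal over 1000 it was 0.31. The value over all 3945 is the one used below unless stated. How mice, sorts or hybridisations vary is not part of it.

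The labelled cell type was checked against its markers. All 9 Treg and T cell markers were above the floor on both arrays. By sign 6 were higher in DNR Tregs, among them Foxp3 (4550 in DNR against 3754 in WT Tregs). The other 3, Cd4 (415 in DNR against 595 in WT Tregs), Il2ra and Cd3e, were lower. Of 6 dendritic cell markers, 1 was above the floor in DNR and 0 in WT Tregs, and the summed signal was 366 in DNR and 382 in WT Tregs. Of 11 macrophage and monocyte markers, 8 were above it on each array, and their summed signal was 4155 in DNR and 5435 in WT Tregs. Of 7 B cell markers, 3 were above it on each array (summed signal 1649 in DNR and 1119 in WT Tregs), and of 5 CD8 T and NK cell markers 5 were in DNR and 4 in WT Tregs (summed signal 1181 in DNR and 1051 in WT Tregs). Of 8 neutrophil markers 3 passed the floor in DNR and 1 in WT Tregs, and they summed to 935 in DNR and 521 in WT Tregs. S100a8 (285 in DNR and 47.1 in WT Tregs) and Ngp (287 in DNR and 37.7 in WT Tregs) were at least 2.57-fold and 2.59-fold higher. Elane, the only one above the floor on both arrays, was lower (173 in DNR and 238 in WT Tregs). S100a9, Camp, Ltf, Mpo and Cxcr2 were below the floor on both arrays. Of 7 platelet markers 1 passed in DNR and 2 in WT Tregs (summed signal 355 in DNR and 474 in WT Tregs), and of 4 erythroid markers 1 in DNR and 0 in WT Tregs (152 in DNR and 53.7 in WT Tregs). Of 6 endothelial and stromal markers 2 passed in DNR and 1 in WT Tregs (496 in DNR and 370.4 in WT Tregs). The part of these cells in the differences below was not tested. The ratio of the 3′ to the 5′ control probe set, a sign of RNA integrity, was 6.31 in DNR and 4.98 in WT Tregs for beta-actin and 2.28 in DNR and 2.07 in WT Tregs for Gapdh.

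Itgae stood apart from the other 9 genes: it was lower in DNR Tregs by 2.64-fold, while none of the others differed by 2-fold. Of the 10 genes 1 was lower by at least 2-fold, against 2.78% of all 9281 genes that passed the floor on both arrays, and 0 were higher by at least 2-fold, against 3.05%. The median log2 ratio of the 10 genes was 0.13, beside -0.03 over the 9281. By sign alone 7 of the 10 were higher in DNR Tregs, against 46.5% of the 9281. The sign depended on the scaling. The 18 probe sets of the hybridisation spike-ins, bacterial transcripts added to every sample, were all brighter on the DNR array, with a median of 1.95-fold, and the 24 of the poly-A spike-ins had a median of 1.29-fold. Setting these equal shifts the log2 ratio of a gene well above the floor on both arrays down by 0.96 or 0.37. Nearer the floor, which was set anew, the shift can be smaller. The ratios below are thus relative to the bulk of transcripts.

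**Figure D1:**
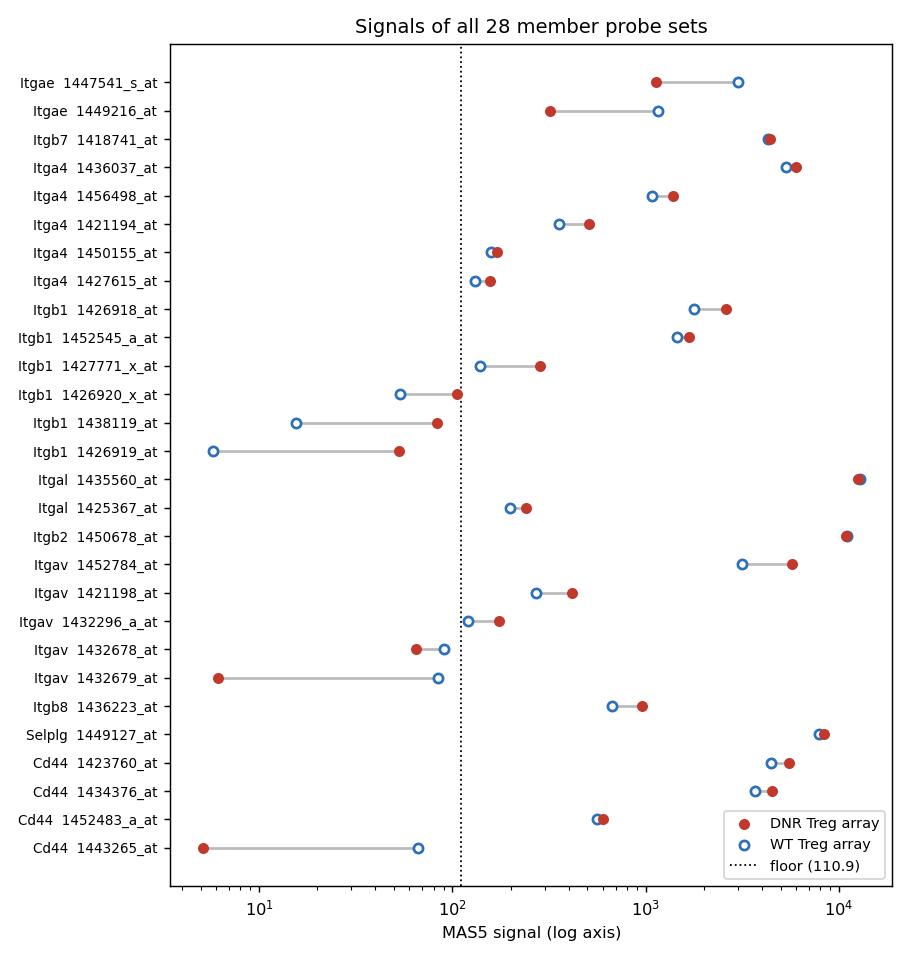
MAS5 signals (log axis) of the 28 probe sets of the 10 genes on the DNR (filled) and WT (open) Treg array, 1 point per array, with the floor of 110.9 dotted. Both Itgae probe sets are lower on the DNR array, while those of Itga4, Itgav and Cd44 above the floor are all somewhat higher on it.

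CD103 itself was lower by both of its probe sets. The brighter one had a signal of 1134 on the DNR array against 2999 on the WT array, a log2 ratio of -1.40. Its identifier marks probes that can bind several transcripts. The other, which has no such mark, had 321 on the DNR array against 1160 on the WT array, a 3.61-fold lower signal (log2 ratio -1.85). Both exceeded the robust SD of 0.36 by far, and they differed from each other by 0.45, within the robust SD of 0.51 for the difference of a pair of probe sets. Of these 3945 genes, 14 (0.355%), Itgae included, had the brightest and the second brightest both at least 2-fold lower in DNR Tregs. That share tells how rare such low ratios were, not how often probe sets of a gene agree. Both Itgae probe sets read the same RNA samples. Of the 9281 genes, 62 had a ratio as low as that of Itgae or lower, Itgae included.

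In bulk samples like these, fewer CD103+ cells and less Itgae RNA per cell cannot be told apart. Other splenic cells can carry CD103, among them a type of dendritic cell and CD8 T cells. Of the 6 dendritic cell markers, Xcr1 (4.35 in DNR and 14.2 in WT Tregs), Flt3, Zbtb46, Batf3 and Cd209a were below the floor on both arrays. Siglech, a marker of plasmacytoid dendritic cells, passed it on the DNR array alone, with 157 in DNR and 82.9 in WT Tregs. Among the CD8 markers, Cd8a had 198 on the DNR against 148 on the WT array and Cd8b1 171 on the DNR against 294 on the WT array. The identifier of this Cd8a probe set marks probes that can cross-hybridise, and other Cd8a probe sets had log2 ratios of -0.05 and 0.15. The part of dendritic cells and of CD8 T cells in the Itgae difference was not tested.

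Beta 7, the only partner of alpha E, had nearly equal signals on the arrays. Itgb7 had a signal of 4419 on the DNR array against 4318 on the WT array, 1.02-fold, by its single probe set. The log2 ratio of Itgae minus that of Itgb7 was -1.44 with the brighter Itgae probe set and -1.89 with the dimmer one. These differences between chains are free of the scaling of the arrays. With the brighter Itgae probe set, alpha E RNA relative to beta 7 RNA was 2.71-fold lower in the DNR than in the WT sample.

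The alpha 4 chain, which shares beta 7 with alpha E, had slightly higher signals in DNR Tregs. The brightest of its 5 probe sets had 6012 on the DNR array against 5330 on the WT array, 1.13-fold. All 5 were above the floor on both arrays and all were higher on the DNR array, with log2 ratios between 0.10 and 0.52. The brightest was within the robust SD of 0.36, and so were all the others but the one at 0.52. Against Itgb7, Itga4 was 0.14 higher on the log2 scale.

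Beta 1, the partner of alpha 4 in VLA-4 and of many other alpha chains, was higher in DNR Tregs by 1.47-fold. Itgb1 had 2615 on the DNR array against 1781 on the WT array by its brightest probe set. A second had 1670 on the DNR array against 1445 on the WT array (log2 ratio 0.21), and a dim one had 283 against 139 (log2 ratio 1.02). The identifier of the dim one marks probes that can cross-hybridise. The 3 ratios spanned 0.81, more than those of any other of the 10 genes, so the size of the beta 1 difference is uncertain. The other 3 probe sets of Itgb1 were below the floor on both arrays.

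LFA-1, the pair of alpha L and beta 2, was nearly equal by both chains. Itgal had a signal of 12569.5 on the DNR array against 12800.0 on the WT array, and Itgb2 10824 against 10957. Their log2 ratios were -0.03 and -0.02, and the chains differed from each other by -0.0086. A second, dim probe set of Itgal had 241 on the DNR array against 198 on the WT array, a log2 ratio of 0.29. Of the 9281 genes, 3.95% had a smaller difference in either direction than Itgb2 and 5.74% a smaller one than Itgal.

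Both chains of alpha V beta 8, the integrin by which Tregs activate latent TGF-beta, had higher signals in DNR Tregs, by less than 2-fold. Itgav had 5745 on the DNR array against 3151 on the WT array, 1.82-fold, which was the largest difference of the 10 genes after Itgae. Its 2 other probe sets above the floor had 418 on the DNR array against 269 on the WT array and 175 against 121, log2 ratios of 0.63 and 0.54. All 3 exceeded the robust SD of 0.36. Of the 9281 genes, 95.6% had a ratio at or below that of Itgav. At a threshold of 1.5-fold Itgav was the only one of the 10 genes that was higher, against 9.51% of the 9281 genes, and Itgae the only one that was lower, against 10.0%. At 3-fold 0 of the 10 were lower by their brightest probe set, against 0.420%.

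Itgb8 had a signal of 953 on the DNR array against 669 on the WT array, 1.43-fold (log2 ratio 0.51), by its single probe set. Alpha V and beta 8 thus differed in the same direction, and from each other by 0.35. Alpha V also pairs with beta 1, whose log2 ratio of 0.55 was close to that of beta 8. Macrophages carry alpha V as well. Of the 8 macrophage and monocyte markers that passed the floor, 7 were lower in DNR Tregs and 1 higher, with a median log2 ratio of -0.44. Their part in the Itgav difference was not tested.

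**Figure D2:**
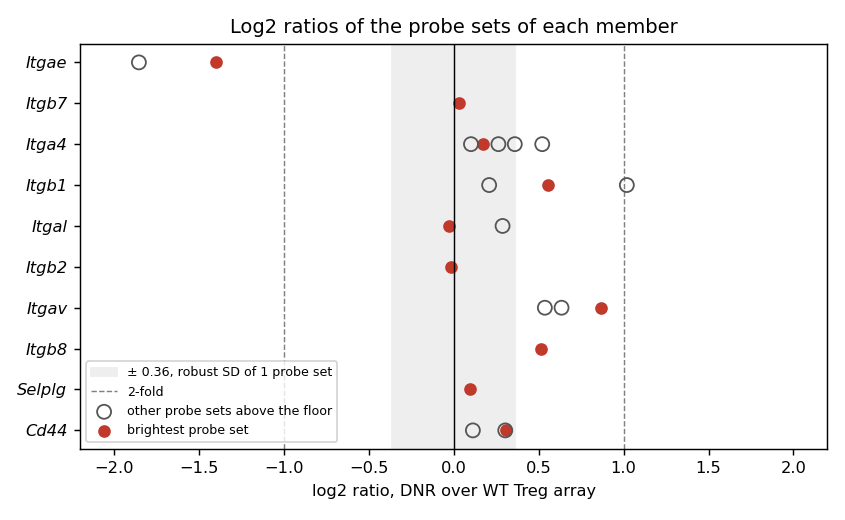
Log2 ratio of the DNR over the WT array for the 22 probe sets that passed the floor on both arrays, by gene, with the brightest probe set filled, the others open and the robust SD of 0.36 shaded. Itgae lies beyond 2-fold by both probe sets, and of the others 1 Itgb1 probe set lies just beyond 2-fold, at 1.02.

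The selectin ligand and the hyaluronan receptor had similar signals in both genotypes. Selplg had a signal of 8412 on the DNR array against 7872 on the WT array, 1.07-fold. Cd44 had 5497 on the DNR array against 4442 on the WT array, 1.24-fold (log2 ratio 0.31). Its second probe set had 4530 on the DNR array against 3671 on the WT array, at a nearly identical ratio of 0.30, and a dimmer one had 604 against 558 (0.11). All 3 Cd44 ratios were above 0 and within the robust SD. A further Cd44 probe set was below the floor on both arrays.

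**Figure D3:**
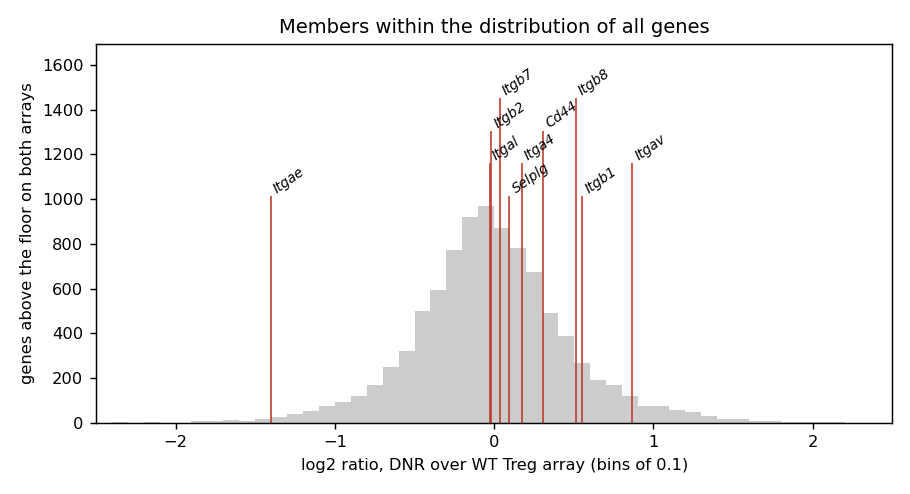
Number of genes that passed the floor on both arrays (n = 9281) by log2 ratio of the DNR over the WT array in bins of 0.1, with the 10 genes as vertical lines whose height carries no value. Itgae lies at -1.40 in the left tail, Itgav at 0.87 on the right shoulder, and the other 8 between -0.03 and 0.55.

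Genes nearest to Itgae in the plane of the 2 log2 signals were Actn1, an actinin that links integrins to the actin skeleton, the ribosomal protein gene Rps27, Rab3ip and Ramp1. Clone names and predicted genes were left out of this ranking. The distances of the 4 were 0.084, 0.12, 0.13 and 0.15 log2 units over the 2 arrays. Actn1 had 1165 on the DNR array against 2849 on the WT array and Rps27 1053 against 2894. Rab3ip had 1038 against 2990 and Ramp1 1246 against 2854. With 2 arrays this likeness says only that level and ratio were close.

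None of the other integrin chains differed by 2-fold with the scaling as deposited. Of these chains, Itga6 and Itgb5 alone were followed by gene under the spike-in scalings, so others may pass 2-fold there too. By their brightest probe sets they were at -1.10 and -1.30 with the poly-A spike-ins set equal. With the hybridisation spike-ins set equal they were at -1.69 and -1.89. Of 18 further chains 16 had a probe set, 11 were above the floor on at least 1 array and 5 on both. Of the 11, 5 were higher and 6 lower, with a median of -0.05. The counts of this list and of those below stand beside all 11927 genes measured. Of these 6133 were higher and 5794 lower, with a median of 0.01. By at least 2-fold 477 were higher and 350 lower. Itga6, a chain of laminin receptors, had 4185 on the DNR array against 6931 on the WT array, 1.66-fold lower, and its second probe set had 1471 against 2235 (-0.60). Itgb5, another partner of alpha V, had 421 on the DNR array against 802 on the WT array, but its second probe set went the other way, at 0.56. The identifiers of both mark probes that can cross-hybridise. Without such probe sets the Itgb5 log2 ratio was -0.004, by a probe set not above the floor on both arrays. So the direction of Itgb5 is not settled, with the spike-in scalings either. Itgb3, also a partner of alpha V, had 548 on the DNR array against 448 on the WT array; it was picked after its values were seen.

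Of 24 measured genes of integrin activation and linkage to actin, 9 were higher and 15 lower, with a median of -0.03. Their log2 ratios ran from -1.29 to 0.39. Actn1 was the only one past 2-fold, at 2.44-fold lower, and its second probe set had 191 on the DNR array against 675 on the WT array (log2 ratio -1.82). The next lowest were Vcl, which encodes the actin linker vinculin, at -0.59, the actinin gene Actn4 at -0.57 and Rasgrp2, an activator of Rap1, at -0.43. Other Rasgrp2 probe sets above the floor were at 0.10, -0.15 and -0.39, so not all were lower. The kindlin gene Fermt3, whose product opens integrins in blood cells, had 25798 on the DNR array against 22206 on the WT array, with its other 3 probe sets between -0.13 and 0.65. The talin gene Tln1 had 1133 against 886. Rap1b, a GTPase that helps to bring talin to integrins, had 32767 on the DNR array against 33324 on the WT array. Apart from Actn1, these genes were picked after their values were seen.

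Of 7 measured genes in a list of integrin ligands, which also holds Tgfb1 and Nrros, 1 was higher and 6 lower. Of all 11927 genes measured, 6133 were higher and 5794 lower. The median of the 7 was -0.38. Icam1, the ligand of LFA-1, was 2.15-fold higher in DNR Tregs (4019 on the DNR against 1869 on the WT array), while both chains of LFA-1 were nearly equal. Vcam1, the ligand of alpha 4 beta 1, had 478 on the DNR array against 974 on the WT array, 2.04-fold lower, and its second probe set was at -1.13. Vcam1 is known as a gene of splenic macrophages and stroma. Of the 8 measured macrophage markers 7 were lower and 1 higher, with a median log2 ratio of -0.44. Their log2 ratios ran from -1.26 (C1qa) to 0.14 (Cd5l), with C1qb nearly equal at -0.02. Their part in the Vcam1 difference was not tested. Its log2 ratio fell just short of 2-fold, at -0.999 and -0.996, with either of the other scalings over all genes. Cdh1, the E-cadherin gene and ligand of CD103, was below the floor on both arrays (36.4 in DNR and 90.1 in WT Tregs).

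Enzymes that make selectin ligands on PSGL-1 included 2 of the larger differences. Of 11 measured genes of selectins and their ligands 5 were higher and 6 lower, with a median of -0.16. Tpst1, a tyrosine sulfotransferase that modifies PSGL-1, had 571 on the DNR array against 249 on the WT array, 2.30-fold higher. Tpst2, its relative, had 2222 on the DNR array against 1812 on the WT array, and is given beside it after its values were seen. The sialyltransferase gene St3gal4 was 2.46-fold lower (164 on the DNR against 404 on the WT array). St3gal6 was at least 2.29-fold higher by a probe set above the floor on the DNR array alone that can cross-hybridise, while its other probe set was lower, at -0.27, so its direction is not settled.

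Among 8 measured genes of hyaluronan handling and of the proteins that tie CD44 to the cell cortex, 4 were higher and 4 lower, with a median of 0.15. Hmmr, a hyaluronan-binding protein of the mitotic spindle, was 2.15-fold higher (470 on the DNR against 219 on the WT array), and 0.79 on the log2 scale with the median over its probe sets. The 24 other adhesion receptors measured had a median of 0.11, with 15 higher and 9 lower. The tetraspanin gene Cd151, whose product binds laminin receptors of the integrin family, was the only one past 2-fold (439 on the DNR against 204 on the WT array), by a probe set whose identifier marks probes that can cross-hybridise. Without such probe sets its log2 ratio was 0.58, under 2-fold. Its other 3 probe sets had log2 ratios of 0.05, 0.58 and 1.42.

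Of 12 measured genes linked to CD103+ T cells that stay in tissue, 7 were higher and 5 lower, with a median of 0.24. Of the 10 above the floor on both arrays, 1 was higher by at least 2-fold, against 3.05% of the 9281 genes, and 1 lower, against 2.78%. Besides Itgae, which is not in this list, the colon homing receptor gene Gpr15 was at least 3.86-fold lower, with 104 on the DNR array, below the floor, against 428 on the WT array. Ahr, the aryl hydrocarbon receptor, had 457 on the DNR array against 1382 on the WT array, 3.03-fold lower. Prdm1, which encodes Blimp-1, a regulator of effector and tissue-resident T cells, was 2.49-fold higher (690 on the DNR against 277 on the WT array). Runx3, a factor known to drive Itgae in CD8 T cells, had 1114 on the DNR array against 788 on the WT array, a log2 ratio of 0.50, with its second probe set at 0.53. It is named after its values were seen, and its part in the Itgae difference was not tested.

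**Figure D4:**
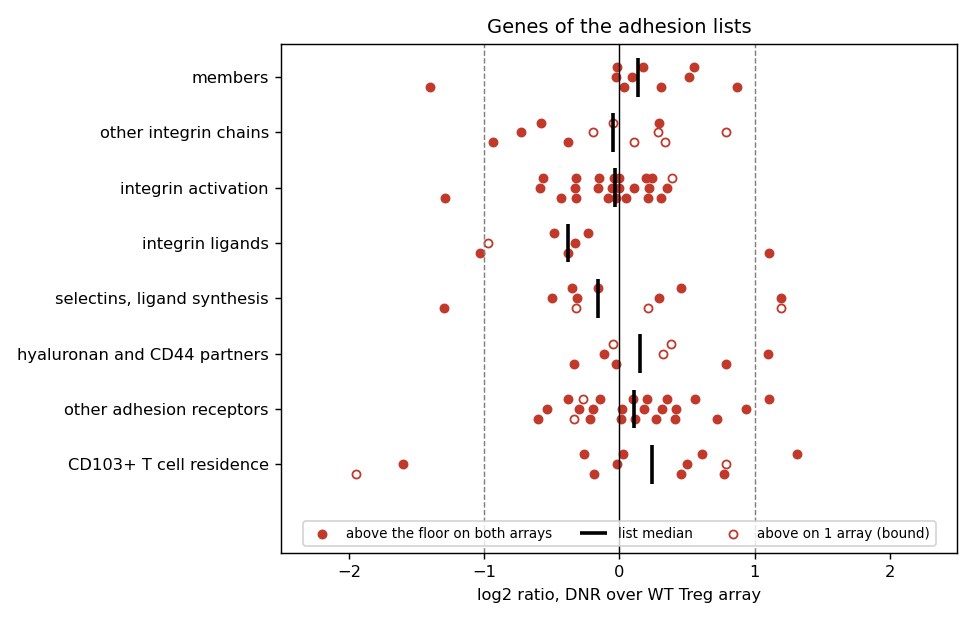
Log2 ratio of the DNR over the WT array for every measured gene of the 10 genes and of 7 related lists, with genes above the floor on both arrays filled, genes above it on 1 array (at their bound) open and the list median as a bar. The medians lie between -0.38 and 0.24, and Itgae, Actn1, Vcam1, St3gal4, Ahr and Gpr15 are the genes below -1.

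Itgae stayed past 2-fold under each floor, scaling and probe set rule run. The floors could not change this, since its signals lay far above them. Nor could the probe set rules, since both Itgae probe sets were past 2-fold. The log2 ratio of Itgae lay between -1.85 and -1.37 over the 8 settings planned. It was -2.36 and -1.78 with the hybridisation or the poly-A spike-ins set equal. The other 9 genes stayed under 2-fold in all of these settings. Itgal and Itgb2 changed sign among the 8, as near-equal values can. With the hybridisation spike-ins set equal all 10 log2 ratios were below 0, with Itgav nearest to 0 at -0.09, and with the poly-A spike-ins set equal Itgb1 (0.18), Itgav (0.49) and Itgb8 (0.14) were the 3 above it. Among the genes of the related lists, Icam1, Tpst1, Hmmr, Cd151 and Prdm1 were no longer 2-fold higher with either set of spike-ins. Their log2 ratios were 0.14, 0.24, 0.14, 0.14 and 0.35 with the hybridisation spike-ins set equal and 0.73, 0.83, 0.73, 0.73 and 0.94 with the poly-A spike-ins set equal.

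**Figure D5:**
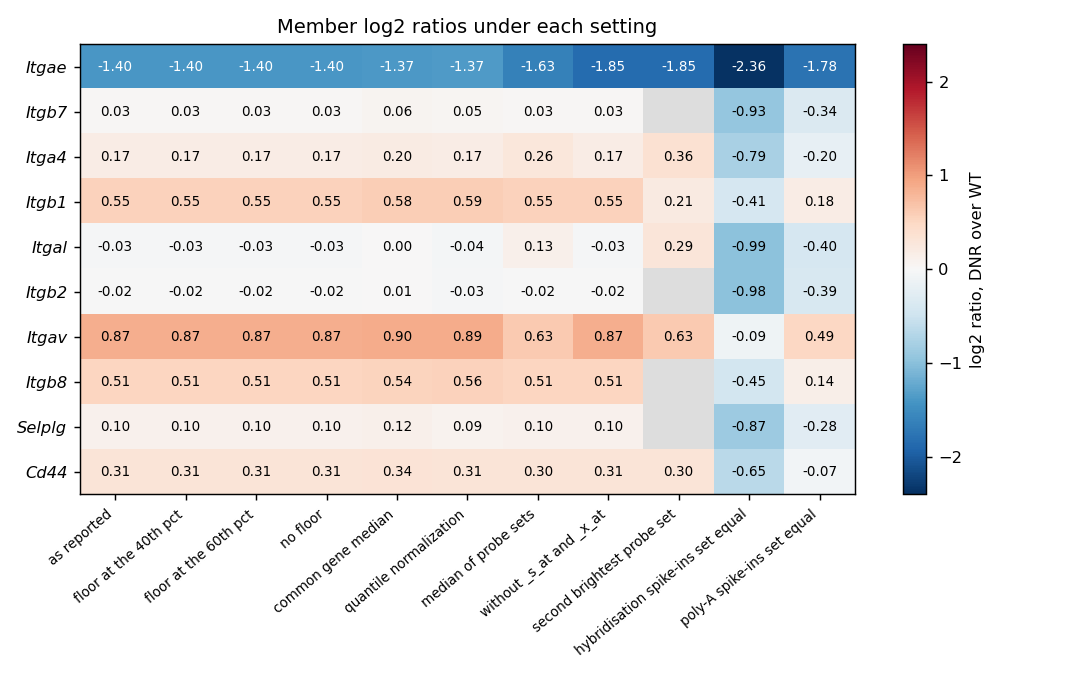
Log2 ratio of the DNR over the WT array for each of the 10 genes (rows) under the setting reported, the 8 planned settings and the 2 spike-in scalings (columns), with grey where a gene has no second probe set. Itgae is the lowest row in every column, and the spike-in scalings lower all rows together.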

How the data were processed

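Total RNA of splenic Tregs was labelled with biotin and hybridised to 1 Affymetrix array per genotype, per the labels' protocols. The authors deposited MAS5 signal intensities, which are linear and not log values; the tool is named in the submitters' processing notes. Both arrays had the same mean signal (495) once the lowest and highest 2% were left out, so they had been scaled before deposition. Of 45101 probe sets, 64 controls were set aside. Of the other 45037 the platform annotation gave 1 gene to 34945 and several to 932, and 9160 are unnamed here. No genome build is named for the arrays.

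Signals below the floor were set to it before log2. A gene was measured if its brightest probe set passed the floor on at least 1 array. Python 3.11.15 with numpy 2.4.6 and pandas 2.3.3 was used, and the gene table was tested on simulated data. Precision is limited by having 1 array per genotype.

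The 10 genes, the 7 related lists and the 9 marker lists were chosen with earlier results of these data known. Named beyond the 10 were, per list, up to 6 genes past 2-fold with the largest differences (otherwise the 2 brightest). Named as well were the 4 genes nearest to Itgae, with clone names and predicted genes left out. Alternatives were floors at the 40th and 60th percentile and none, 2 scalings over all genes, 3 other rules for the probe set, and thresholds of 1.5-fold and 3-fold. The spike-in scalings were chosen after seeing the data.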

Additional observations from a re-analysis of the deposited data

How the results depend on the processing

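No paired analysis was possible because there was 1 array per genotype, and for the same reason no replicate could be left out. Over the 8 planned settings all 76 values of the 10 genes kept their side of 2-fold. The floor settings could not move any of them, since the signals of all 10 genes lay far above the floors. Values of the 9 genes other than Itgae moved by less than the robust SD of a probe set, while Itgae ranged from -1.85 to -1.37. The median of the 10 genes was between 0.13 and 0.30 over those 8 settings, and -0.83 and -0.24 with the hybridisation and the poly-A spike-ins set equal, by construction of a common shift. At 1.5-fold 1 gene was higher, and at 3-fold 0 were lower. Of 121 values of the 16 other named genes, 108 kept their side of 2-fold, though sizes moved (Gpr15 was at -1.36 with the floor at the 60th percentile), 7 fell under 2-fold, 3 of Itgb5 stayed under it but moved by more than the robust SD, and 3 reversed. The reversed gene was St3gal6, at -0.27 with the median over its probe sets, -0.44 without cross-hybridising probe sets and -0.27 with its second probe set. These settings drew on probe sets other than its brightest. With the hybridisation spike-ins set equal it was also reversed, at -0.81. There the probe set at -0.27 became the brightest, with its DNR signal below the floor set anew, so -0.81 is a bound. Of 56 list medians 53 moved by less than the robust SD; those of integrin ligands with no floor (-1.06) and with the second probe set (-1.21) and of hyaluronan genes with the second probe set (-0.26) moved further. Signals near the floor, such as those of St3gal4, Hmmr and Gpr15, limit what can be read.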

Other observations

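Among the other adhesion receptors, 2 genes with several probe sets were picked after their values were seen. Epcam, a homophilic adhesion molecule best known from epithelium, had a signal of 1470 on the DNR array against 769 on the WT array, 1.91-fold. Its second probe set, whose identifier marks probes that can cross-hybridise, had 513 against 160, a log2 ratio of 1.68. Nrp1, a semaphorin receptor and surface marker of thymus-derived Tregs, had 5809 on the DNR array against 8798 on the WT array, 1.51-fold lower. Of its other 3 probe sets 2 were lower, at -0.45 and -0.61, and the dimmest was higher, at 0.86. Both genes were under 2-fold by their brightest probe set.

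The 6 probe sets of the 10 genes below the floor on both arrays went different ways. The 3 Itgb1 probe sets among them had 106, 83.4 and 52.8 in DNR Tregs and 53.5, 15.6 and 5.78 in WT Tregs. The 2 of Itgav had 64.8 and 6.10 in DNR Tregs and 90.2 and 83.8 in WT Tregs. The 1 of Cd44 had 5.11 in DNR Tregs and 66.1 in WT Tregs. No ratio is given for any of them.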
